A study of Mus musculus with 12 samples.

Results

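The receptor genes *Ccr1*, *Ccr2*, *Ccrl2*, *Cx3cr1*, *Cxcr4* and *Cmklr1*, 6 members of the chemokine and chemerin system, were followed in ARG1+ and ARG1- microglia. They were found by matching these 6 symbols to the Ensembl identifiers of the count table through the GRCm38 annotation, which gave 6 of the 55487 genes listed. All 6 passed the filter on low counts and were among the 16908 genes tested. Microglia had been sorted at postnatal day 13 from YARG mice, in which YFP is placed behind the stop codon of the endogenous *Arg1* gene. Tissue came from the basal forebrain and striatum of 3 to 5 mice, pooled for each library, and the gate kept cells that were positive for CX3CR1 and negative for CD206. ARG1- and ARG1+ here mean YFP- and YFP+ cells of such mice, with 3 female and 3 male libraries of each (n = 6 per population, n = 3 per group). All 4 groups carry the reporter, and the labels name no treatment. Replicates are separate pools, each from its own litter per the study's methods, and the labels do not tell which ARG1+ and ARG1- libraries share one, so p-values measure the spread between these libraries.

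Chemokine receptors span the membrane several times and pass their signal to inhibitory G proteins, which release calcium, activate PI3 kinase and Rac and steer the cell toward the source of the ligand. Arrestins and receptor kinases then silence the receptor, and regulators of G protein signaling (RGS proteins) shorten the G protein signal. CCR1 binds CCL3, CCL5, CCL6, CCL7 and CCL9, and CCR2 binds CCL2, CCL7 and CCL12 and is best known from blood monocytes. CX3CR1 is the receptor for fractalkine (CX3CL1), which neurons make, and its locus drives common microglia reporters. CXCR4 binds CXCL12. CMKLR1 is the signaling receptor for chemerin, the product of *Rarres2*, whereas CCRL2 binds chemerin without a G protein signal of its own and presents it to other cells.

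The libraries held 28356659 to 60625170 counts. A gene with at most 3 counts is read here as not detected, which corresponds to 0.0511 to 0.102 CPM (counts scaled to the TMM-normalized library size, per 1000000 counts). This limit concerns reads and not molecules, because reads without molecular identifiers are not independent molecules. The intervals of 2 SE given below come from the fit and include the spread between libraries. *Arg1* mRNA itself had 52 counts in ARG1+ female 15, 2 counts in ARG1+ female 8 and none in the other 10 libraries, so it checks the sort labels of few libraries. The 10 microglia markers were detected in every library. Their summed level was 54210.5 to 70912.9 CPM in ARG1- and 40830.9 to 50907.8 CPM in ARG1+ microglia. By edgeR, 8 of them passed the test downward and 1 (*Sall1*) upward. Border macrophage markers summed to 293 to 512 CPM in ARG1- and 398 to 837 CPM in ARG1+ libraries. Of the 6 of these that were tested, 1 (*Stab1*) passed upward and 0 downward. What part such cells had in the results was not tested. Of 10 monocyte markers, 2 had no count in any library (*Chil3* and *Gm9733*), and the summed level was 8.73 to 14.8 CPM in ARG1- and 1.81 to 8.01 CPM in ARG1+. Transcripts with detained introns or nuclear location were higher in ARG1+ microglia, with a summed level of 4972.9 to 8473.3 CPM against 2369.2 to 4715.9 CPM. Of those 14 genes, 8 passed the test upward, beside 6.44% of all genes tested. Mitochondrially encoded genes took 0.135% to 0.329% of counts in ARG1+ and 0.194% to 0.491% in ARG1- libraries. Both RNA measures moved with the populations, and their part in the results that follow was not tested.

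Because several of these receptors are recent duplicates, their sequences were first searched for stretches that a 75-base read cannot assign. Of the 75-base windows in its annotated transcripts, *Ccr1* shared 0 of 2759 with any other gene, and the same held for *Ccrl2* (0 of 2563), *Cxcr4* (0 of 1805) and *Cmklr1* (0 of 3329). The longest identical coding stretch between *Ccr1* and the other chromosome 9 receptors examined was 47 bases, with *Ccr3*, which is shorter than a read. It is shown because it is the longest stretch that could have confused the reads of *Ccr1* with those of a neighbor. In GRCm38 it lies at chr9:123963611-123963657 (minus strand, *Ccr1*) and at chr9:124029476-124029522 (plus strand, *Ccr3*), within coding exons of both.
Ccr1 and Ccr3: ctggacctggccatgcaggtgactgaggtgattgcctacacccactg

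Of the 6734 windows of *Ccr2*, 78 (1.16%) also occur in another gene, so part of its low count is uncertain. How reads with more than 1 position were counted is not given in the sources used here.

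*Ccr1* (ENSMUSG00000025804; chromosome 9, 123962124 to 123968692, minus strand) was the one member called between the populations by edgeR in the fit of all 12 libraries, and it fell in ARG1+ microglia. It overlaps no other annotated gene. In ARG1- microglia it had 224, 127 and 200.2 CPM in females 1, 2 and 13, and 155, 143 and 208 CPM in males 5, 6 and 14. In ARG1+ microglia it had 83.1, 50.2 and 60.7 CPM in females 7, 8 and 15, and 26.7, 38.6 and 55.3 CPM in males 11, 12 and 16. The highest ARG1+ library was thus below the lowest ARG1- library, and the highest ARG1+ value was a female one. The counts behind these values ran from 1173 in ARG1+ male 11 to 11744 in ARG1- female 13. The mean fell from 176 ± 39.5 to 52.4 ± 19.4 CPM (SD, n = 6 libraries each), a fitted 3.45-fold decrease (log2 fold change -1.79, SE 0.22, adjusted p = 6.46e-04 by edgeR's quasi-likelihood test). In bulk libraries, fewer cells with a transcript and less of it per cell cannot be told apart. At the same limit, an adjusted p under 0.05, 15.9% of all genes tested were called, of which 6.44% were higher and 9.42% lower in ARG1+ microglia. The 1 call among 6 members (16.7%) is close to that share, so the list as a whole did not stand apart. Likewise, 6.56% of all genes had every ARG1+ library below every ARG1- library, and 3.48% had every one above.

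The size of the change can be read against other genes. Of the 1593 genes called lower in ARG1+ microglia, 45 had a more negative log2 fold change than *Ccr1*. Among the 915 of them with at least 50 CPM on average in ARG1- microglia, a bound chosen after the values were seen, 3 did, namely *Mir6236*, *Gm15564* and *mt-Rnr1*. Relative to *Cx3cr1* counts of the same library, *Ccr1* counts were 4.0% ± 1.45 (2.55% to 6.69%) in ARG1- and 1.09% ± 0.370 (0.75% to 1.59%) in ARG1+ microglia (SD, n = 6 each; difference of -1.87 on the log2 scale). This ratio needs no scaling factor, was chosen after the values of both genes were seen, and is given as a description with no test. In the 12 fits that each left out 1 library, the log2 fold change of *Ccr1* ran from -1.91 to -1.64 and the adjusted p from 8.06e-04 to 0.00373.

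**Figure D1:**
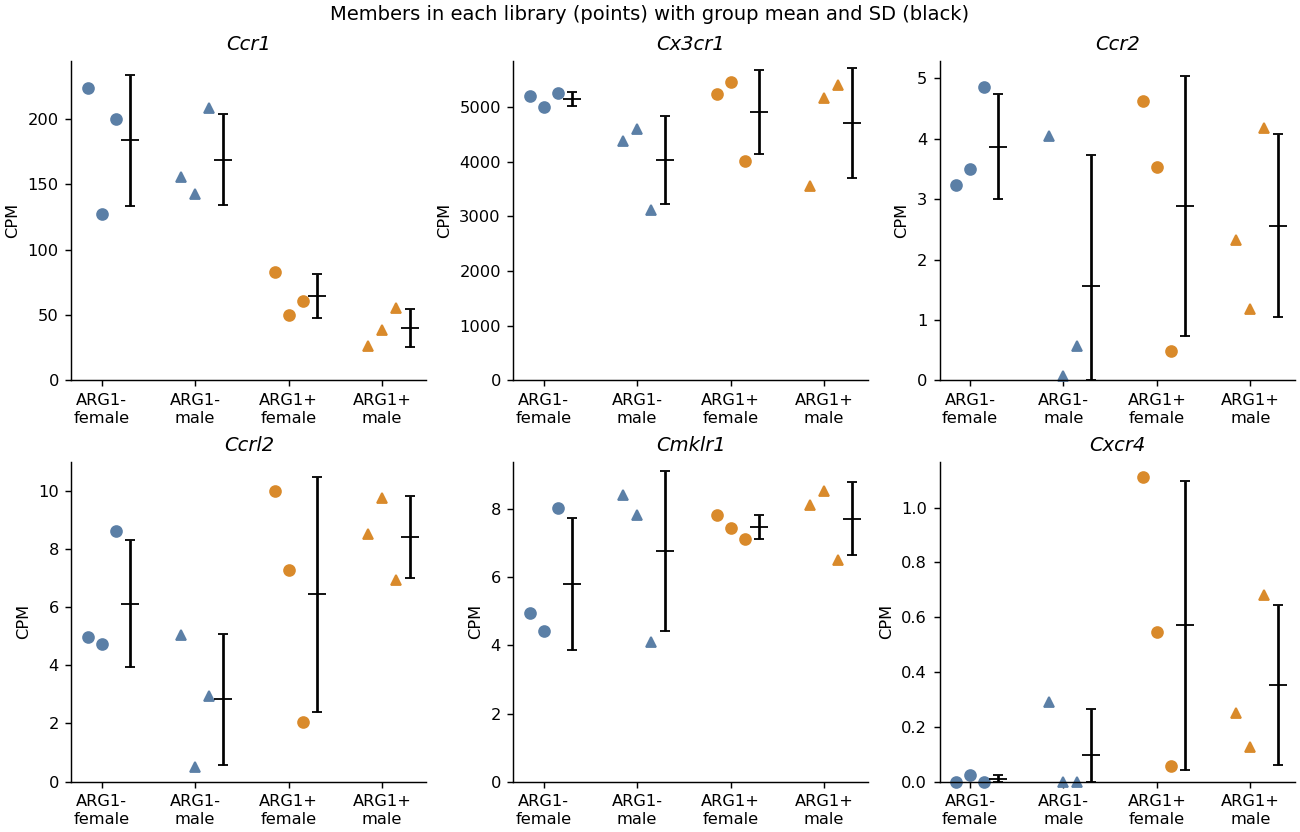
Level of the 6 members in CPM (y axis, from 0, with its own scale in each panel) in each of the 12 libraries, by population and sex (x axis). Circles are female and triangles male libraries, and black marks show the mean and SD of 3 libraries, with the lower bar ended at 0 where it would pass it. *Ccr1* lies at 127 to 224 CPM in ARG1- and at 26.7 to 83.1 CPM in ARG1+ libraries, while the populations overlap in the other 5 panels.

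The fall of *Ccr1* was present in both sexes. In females it went from 184 ± 50.2 to 64.7 ± 16.8 CPM (SD, n = 3 libraries each; log2 fold change -1.51, SE 0.30, adjusted p = 0.0185 by edgeR), where 6.76% of all genes were called. In males it went from 169 ± 34.7 to 40.2 ± 14.4 CPM (SD, n = 3 each; log2 fold change -2.07, SE 0.31, adjusted p = 0.0137 by edgeR), where 5.13% of all genes were called. Although the male estimate was larger, the difference of the 2 effects was -0.56 on the log2 scale (SE 0.42, unadjusted p = 0.206, adjusted p = 0.748 by edgeR) and did not exceed the spread between libraries. With single libraries left out, the female call was lost without ARG1- female 13 (adjusted p = 0.0521) and without ARG1+ female 7, 8 or 15 (0.0636, 0.0863 and 0.0661). The male call was lost without ARG1+ male 12 (adjusted p = 0.0889, log2 fold change -2.03).

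For the other members, too, no difference of the ARG1 effect between the sexes was called by edgeR, with 0 of 6 members at an unadjusted p under 0.05 and 0 of 6 called by DESeq2. Over all genes this interaction gave 0% of calls (1576 genes at an unadjusted p under 0.05, 284 called by DESeq2). Females and males were also compared within each population, where 0.0946% of genes were called in ARG1- and 0.0355% in ARG1+ microglia. None of the 6 members was called by edgeR or by DESeq2 in either population. *Ccr1* was the one member at an unadjusted p under 0.05, in ARG1+ microglia, with 64.7 ± 16.8 CPM in females and 40.2 ± 14.4 CPM in males (log2 difference 0.69, unadjusted p = 0.042, adjusted p = 1 by edgeR). In ARG1- microglia its log2 difference between the sexes was 0.12 (adjusted p = 0.974).

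*Cx3cr1* (ENSMUSG00000052336; chromosome 9, 119901616 to 120069879, minus strand), the fractalkine receptor, was the most abundant member and did not pass the test. Its protein was part of the sort gate for both populations, so its presence in every library was set by the selection of the cells. In ARG1- microglia it had 5200.2, 5003 and 5248 CPM in the 3 female and 4373, 4600.1 and 3112 CPM in the 3 male libraries, in the order of their numbers. In ARG1+ microglia it had 5238, 5447 and 4019.6 CPM in females and 3545, 5155 and 5399 CPM in males. The values overlapped over most of their range, and the lowest one belonged to ARG1- male 14. The log2 fold change was 0.08 (SE 0.13, adjusted p = 0.752 by edgeR), and 2 SE on either side of it reached from -0.19 to 0.34. The annotated gene overlaps 9 others, and 5 of its 4428 windows of 75 bases also occur in another gene. The library kit does not mark strand, so reads from overlapping exons cannot be told apart.

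*Ccr2* (ENSMUSG00000049103; chromosome 9, 124101950 to 124113557, plus strand) was sparse and was not called. It had 3.24, 3.50 and 4.86 CPM in ARG1- females 1, 2 and 13, and 4.05, 0.0669 and 0.56 CPM in ARG1- males 5, 6 and 14. In ARG1+ microglia it had 4.63, 3.54 and 0.48 CPM in females 7, 8 and 15, and 2.32, 1.18 and 4.18 CPM in males 11, 12 and 16. ARG1- males 6 and 14 and ARG1+ female 15 were under 1 CPM, and the 2 counts of ARG1- male 6 were under the detection limit. The means were 2.71 ± 1.94 and 2.72 ± 1.67 CPM (SD, n = 6 each), and the fitted log2 difference was 0.14 (SE 0.79, adjusted p = 0.929 by edgeR). The fitted sign turned without ARG1- male 6, ARG1- male 14 or ARG1+ male 16, and the interval of 2 SE ran from -1.43 to 1.71, so changes of either sign remain possible with this spread between libraries. Of the markers that define blood monocytes, *Ly6c2* reached at most 0.0296 CPM in ARG1- and had no count in ARG1+ microglia. *Plac8*, which monocytes share with other cells, fell from between 4.08 and 9.09 CPM to between 0.38 and 2.30 CPM (adjusted p = 0.00466 by edgeR). Both were picked from 10 listed monocyte markers, of which 3 were tested, 1 was lower and 0 were higher. Over all genes tested, 9.42% were lower. The 10 summed to 8.73 to 14.8 CPM in ARG1- and 1.81 to 8.01 CPM in ARG1+ libraries, so others of the list were present in ARG1+ microglia.

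Both chemerin receptors were low, and neither passed the test. *Ccrl2* (ENSMUSG00000043953; chromosome 9, 111054486 to 111057519, minus strand) had 4.95, 4.74 and 8.62 CPM in ARG1- females and 5.03, 0.50 and 2.93 CPM in ARG1- males. In ARG1+ microglia it had 9.99, 7.29 and 2.05 CPM in females and 8.52, 9.75 and 6.94 CPM in males. All 3 ARG1+ males were above all 3 ARG1- males, whereas the females overlapped. How many of all genes split this way between 3 and 3 male libraries was not counted. Its mean was 4.46 ± 2.68 in ARG1- and 7.42 ± 2.91 CPM in ARG1+ microglia (SD, n = 6 each; log2 fold change 0.82, SE 0.55, adjusted p = 0.359 by edgeR). In males alone the log2 fold change was 1.57 (SE 0.73, adjusted p = 0.229) and in females 0.08 (SE 0.72, adjusted p = 0.970), but this difference between the sexes was not called (interaction adjusted p = 0.71).

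*Cmklr1* (ENSMUSG00000042190; chromosome 5, 113612354 to 113650426, minus strand) is the signaling chemerin receptor and overlaps 1 antisense gene, *Gm15736*. In ARG1- microglia it had 4.95, 4.42 and 8.03 CPM in females and 8.41, 7.83 and 4.09 CPM in males. In ARG1+ microglia the values were closer together, with 7.83, 7.46 and 7.12 CPM in females and 8.14, 8.53 and 6.52 CPM in males. The ARG1+ range, 6.52 to 8.53 CPM, lay almost wholly within the ARG1- range. Its means were 6.29 ± 2.0 and 7.60 ± 0.724 CPM (SD, n = 6 each; log2 fold change 0.28, SE 0.25, adjusted p = 0.507 by edgeR).

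*Cxcr4* (ENSMUSG00000045382; chromosome 1, 128588199 to 128592293, minus strand), the CXCL12 receptor, was close to the detection limit and is given in counts. ARG1- females 1, 2 and 13 held 0, 1 and 0 counts, and ARG1- males 5, 6 and 14 held 11, 0 and 0. ARG1+ females 7, 8 and 15 held 35, 16 and 2 counts, and ARG1+ males 11, 12 and 16 held 11, 6 and 23. More than 3 counts were therefore present in 5 of 6 ARG1+ libraries and in 1 of 6 ARG1- libraries. The levels behind these counts reached 0.291 CPM in ARG1- and 1.11 CPM in ARG1+ microglia. By edgeR the difference was not called (log2 fold change 3.47, SE 1.46, unadjusted p = 0.0351, adjusted p = 0.136), and its size depends on the prior count. It was called without ARG1- male 5 (adjusted p = 0.0130, log2 fold change 5.96) and by DESeq2 with the same terms (adjusted p = 0.0453, log2 fold change 3.74), so that 2 members in place of 1 were called in these fits.

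Levels were compared between receptors per kilobase of annotated exon. In ARG1- microglia the order of the members was *Cx3cr1* (1018.7 ± 178 CPM per kilobase), *Ccr1* (62.2 ± 13.9), *Cmklr1* (1.85 ± 0.587), *Ccrl2* (1.72 ± 1.03), *Ccr2* (0.401 ± 0.288) and *Cxcr4* (0.0291 ± 0.0648; SD, n = 6 libraries). *Cmklr1* and *Ccrl2* did not differ beyond their spread. In ARG1+ microglia *Cx3cr1* (1065.6 ± 180 CPM per kilobase) again stood first, and *Ccr1* was second at 18.5 ± 6.84. *Ccrl2* (2.86 ± 1.12) and *Cmklr1* (2.23 ± 0.212) were within each other's spread, as were *Ccr2* (0.403 ± 0.248) and *Cxcr4* (0.255 ± 0.221). Among 47 receptors of chemokines and other chemoattractants that were listed, *Ccr1* ranked 3 by level per length in ARG1- and 7 in ARG1+ microglia. The ARG1+ rank is not firm, as *Ccr1* was there within the spread of *Ptafr* (21.4 ± 2.70 CPM per kilobase) and *Cysltr1* (17.6 ± 3.24). Of the summed level per length of the 47 receptors, *Ccr1* made up 4.52% ± 1.35 in ARG1- and 1.25% ± 0.417 in ARG1+ microglia, and *Cx3cr1* 72.0% ± 3.80 and 72.4% ± 3.07 (SD, n = 6 each).

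**Figure D2:**
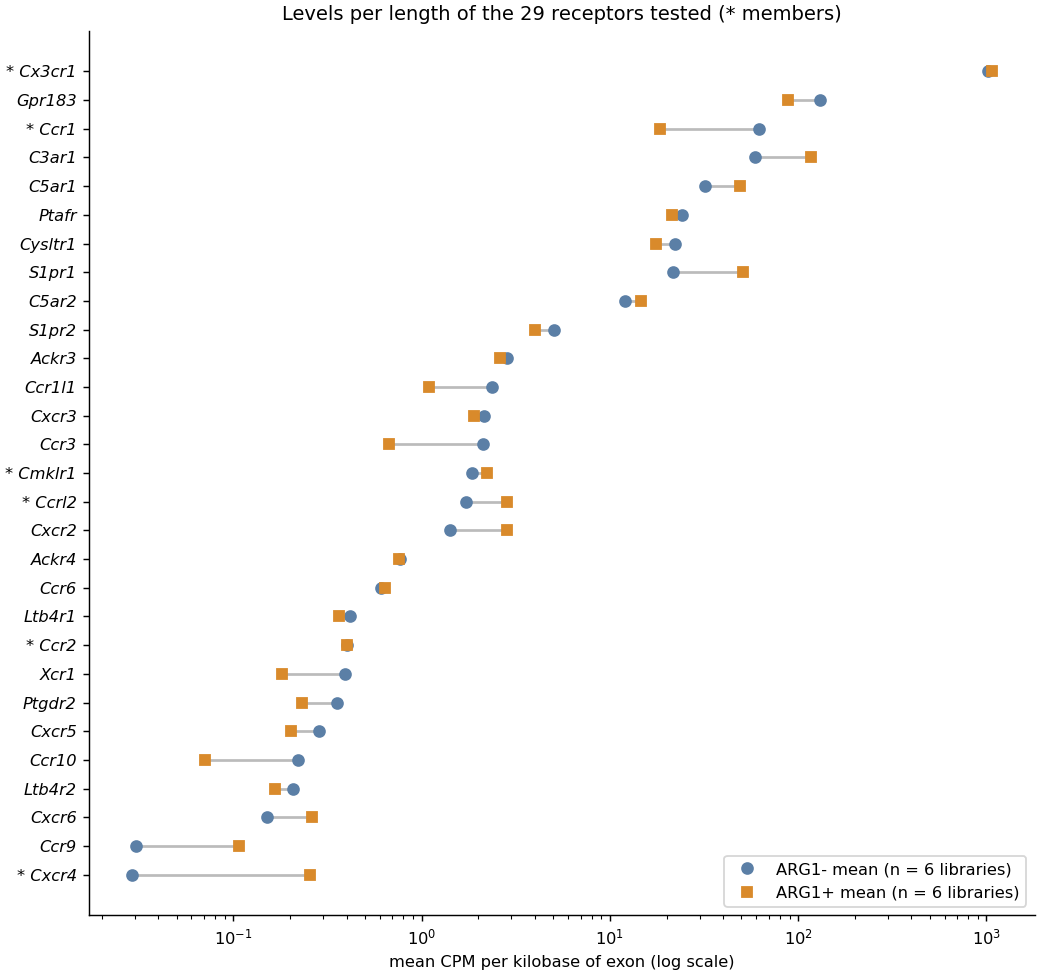
Mean level per kilobase of exon (x axis, log scale) of the 29 receptors tested, in ARG1- (circles) and ARG1+ (squares) microglia (n = 6 libraries each), ordered by the ARG1- level, with members marked by a star. *Cx3cr1* stands apart at 1018.7 and 1065.6 CPM per kilobase, and *Ccr1* moves from 62.2 to 18.5.

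The other receptors of the same kind gave calls in both directions. The lists of signaling and atypical chemokine receptors and of other chemoattractant receptors held 47 genes, of which 9 had no count, 29 were tested and 5 (17.2%) were called, beside 15.9% of all genes. Of these, 3 rose and 2 fell, and the median log2 fold change of the 29 was -0.04, against 0.06 over all genes tested. Among signaling chemokine receptors, 1 of 14 was called, which was *Ccr1*. DESeq2 with the same terms also called *Cxcr2* and *Cxcr4* higher, and edgeR called *Cxcr4* and *Ccr9* higher without ARG1- male 5 and *Cxcr2* higher without ARG1- male 14. Of the atypical receptors, 0 of 3 receptors were called (by edgeR, with 0 at an unadjusted p under 0.05 and 0 called by DESeq2).

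*C3ar1*, the receptor for the complement fragment C3a, had 211 to 306 CPM (median 256) in ARG1- and 439.6 to 550.3 CPM (median 509.6) in ARG1+ microglia. It rose without overlap of the populations (log2 fold change 0.99, SE 0.09, adjusted p = 1.87e-04 by edgeR). *C5ar1*, the receptor for the complement fragment C5a, had 55.0 to 101 CPM (median 84.4) and 100.3 to 148 CPM (median 121), and it rose by 0.60 on the log2 scale (SE 0.14, adjusted p = 0.0134). *S1pr1*, a receptor for sphingosine 1-phosphate, had 31.4 to 90.3 CPM (median 65.7) and 118 to 174 CPM (median 162), and it rose by 1.25 (SE 0.21, adjusted p = 0.00250). With these changes the order of levels per length turned, in that *C3ar1* (59.1 CPM per kilobase) and *S1pr1* (21.6) were below *Ccr1* (62.2) in ARG1- and above it in ARG1+ microglia (118 and 50.9 beside 18.5), although *C3ar1* and *Ccr1* were within each other's spread in ARG1-.

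*Gpr183*, the receptor for oxysterols, fell from 311 to 448 CPM (median 390.0) in ARG1- to 193 to 292 CPM (median 256) in ARG1+ microglia, again without overlap (log2 fold change -0.58, SE 0.12, adjusted p = 0.00641 by edgeR). *Cxcr2*, a receptor best known from neutrophils, had 0.97 to 6.97 CPM in ARG1- and 4.90 to 11.5 CPM in ARG1+ microglia and was not called (log2 fold change 0.99, SE 0.39, adjusted p = 0.108). Of the other neutrophil markers, *Ly6g* and *Retnlg* had no count in any library, and *Ltf* (at most 1.84 CPM), *S100a9* (1.47) and *Ngp* (1.27) reached their highest values in ARG1- male 6. Without that library *Cxcr2* was again not called. The 9 neutrophil markers, *Cxcr2* included, summed to 3.75 to 6.97 CPM in ARG1- and 5.84 to 11.5 CPM in ARG1+ libraries. The lowest ARG1+ sum was above the lowest ARG1+ level of *Cxcr2*, so other neutrophil markers were present in ARG1+ microglia as well.

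**Figure D3:**
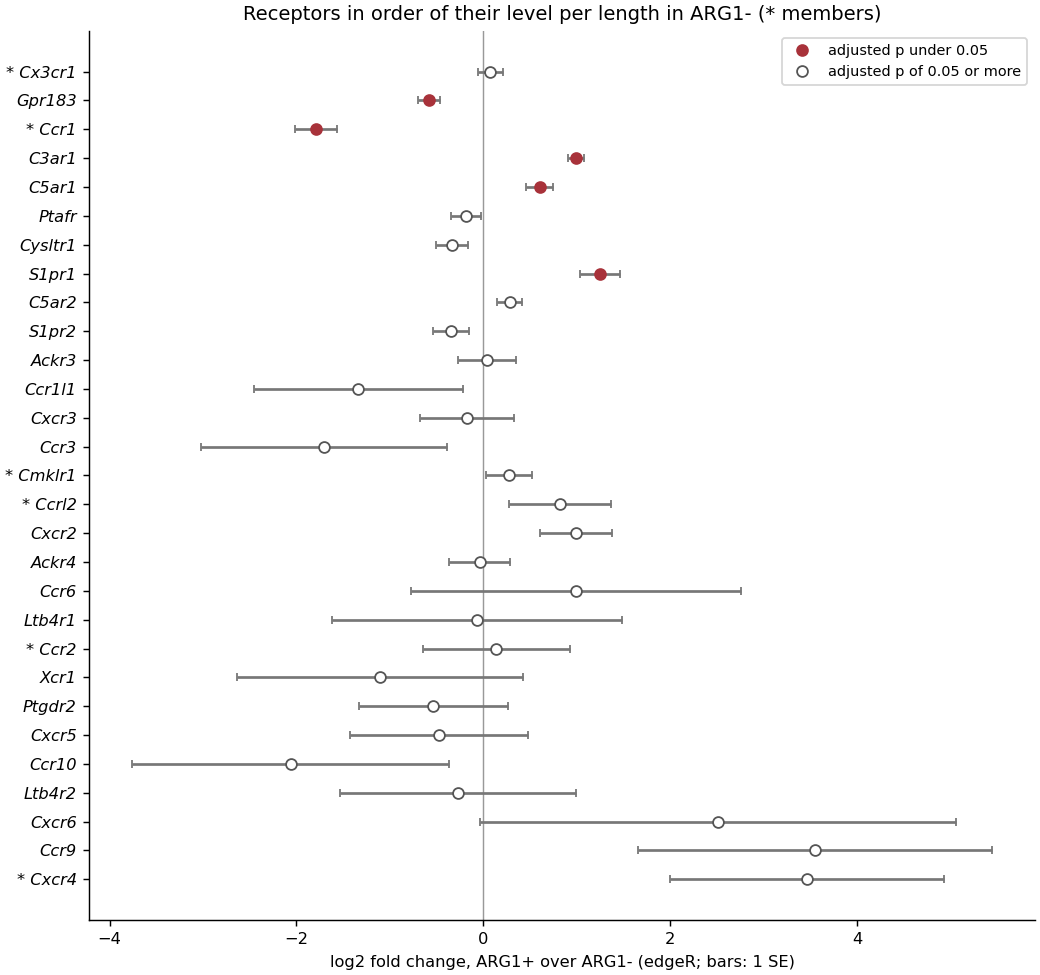
Log2 fold change of ARG1+ over ARG1- microglia (x axis; bars show 1 SE, edgeR) for the 29 receptors tested, from the highest level per length in ARG1- at the top to the lowest, with members marked by a star and filled red points for an adjusted p under 0.05. *Ccr1* (-1.79) and *Gpr183* (-0.58) lie left of 0, *C3ar1* (0.99), *C5ar1* (0.60) and *S1pr1* (1.25) lie right of it, and the SE widens toward the sparse receptors.

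Since 4 of the members lie on chromosome 9, the genes of the *Ccr1* cluster and some farther off were examined in their order along the chromosome. *Ccr2* starts 133 kb beyond *Ccr1* in the same cluster of receptor genes. *Cx3cr1* ends 3.89 Mb and *Ccrl2* 12.9 Mb before *Ccr1*. The list of 17 genes held the cluster, its flanks and genes farther off such as *Ccrl2*. Of these, 12 were tested, 2 were called higher and 1 lower, beside 6.44% and 9.42% of all genes tested. Between *Ccr1* and *Ccr2*, *Ccr1l1* had 2.77 ± 2.56 CPM in ARG1- and 1.27 ± 1.37 CPM in ARG1+ microglia, and *Ccr3*, the eotaxin receptor, had 6.95 ± 6.97 and 2.19 ± 1.97 CPM (SD, n = 6 each). Neither passed the test (log2 fold change -1.34, SE 1.12, adjusted p = 0.473, and log2 fold change -1.71, SE 1.31, adjusted p = 0.434, by edgeR). *Fyco1*, which couples vesicles to microtubule transport and whose annotated span lies between *Ccr9* and *Xcr1* and contains *Cxcr6*, changed the other way, from 14.7 to 29.0 CPM (median 17.7) in ARG1- to 46.3 to 67.0 CPM (median 49.8) in ARG1+ microglia (fitted log2 change 1.44, SE 0.19, adjusted p = 8.69e-04). *Als2cl*, farther off, had no count in 5 ARG1- libraries and 0.56 CPM in ARG1- male 5, beside 0 to 4.67 CPM (median 3.58) in ARG1+ microglia (adjusted p = 0.0454). That call held in 3 of the 12 fits that left out 1 library, and the fitted size depends on the prior count.

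**Figure D4:**
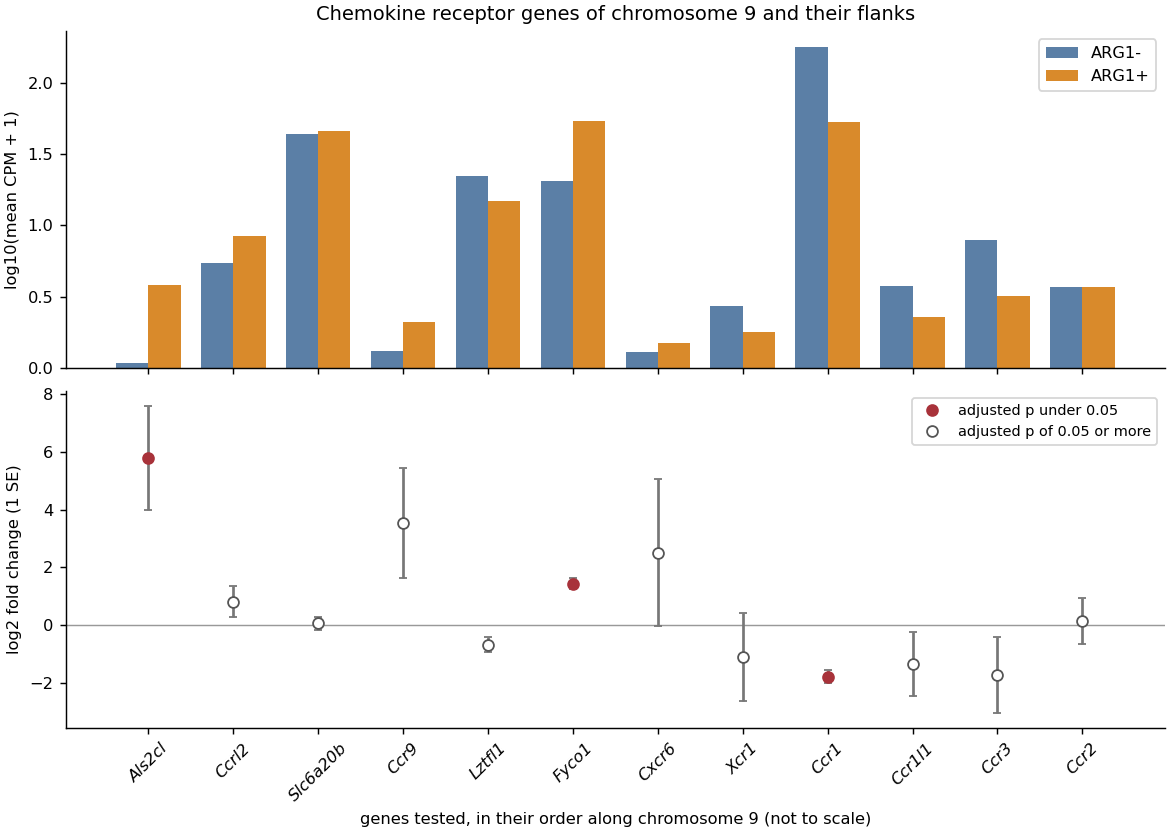
The 12 tested genes of the chromosome 9 cluster, its flanks and genes farther off such as *Ccrl2*, in their order along the chromosome but not to scale (x axis), with the mean level as log10(CPM + 1) in each population (top, bars from 0) and the log2 fold change with 1 SE (bottom; red points have an adjusted p under 0.05). *Fyco1* (1.44) and *Als2cl* (5.79) lie above 0, and *Ccr1* (-1.79) below it, with uncalled genes between them.

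The ligands of the members were examined in the same libraries. Of 13 ligand genes, 12 were tested, 2 were higher (*Ccl3* and *Ccl4*) and 1 was lower (*Ccl12*) in ARG1+ microglia, with a median log2 fold change of 0.00 over the list. Over all genes tested, 6.44% were called higher and 9.42% lower. *Ccl3*, whose product binds CCR1, had 4.36 to 13.9 CPM (median 6.72) in ARG1- and 19.1 to 39.3 CPM (median 29.8) in ARG1+ microglia (fitted log2 change 1.82, SE 0.31, adjusted p = 0.00258 by edgeR). *Ccl4*, which encodes a related chemokine, had 3.48 to 14.7 CPM (median 6.16) and 15.3 to 33.2 CPM (median 22.3; log2 fold change 1.70, SE 0.32, adjusted p = 0.00490). Both rose without overlap, in the population in which *Ccr1* fell. *Ccl3* and *Ccl4* can also be induced by tissue handling. Of 20 immediate early genes, 18 were tested. Among those *Egr1* and *Atf3* rose and none fell, and the list summed to 521 to 846 CPM in ARG1- and 719 to 800.3 CPM in ARG1+ microglia. Of 13 NF-kB inducible genes, 12 were tested, 3 rose (*Ccl3*, *Ccl4* and *Cd83*) and 3 fell (*Nfkbia*, *Il1a* and *Bcl2a1b*). The part of handling in the 2 ligands was not tested.

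*Ccl12*, a ligand of CCR2, had 47.2 to 95.7 CPM (median 79.8) in ARG1- and 22.9 to 53.5 CPM (median 40.2) in ARG1+ microglia, and it fell by 0.97 on the log2 scale (SE 0.21, adjusted p = 0.0101 by edgeR). The most abundant ligands, *Ccl9* (165 ± 6.28 and 141 ± 42.0 CPM; SD, n = 6 each) and *Ccl6* (148 ± 27.8 and 172 ± 44.9 CPM), which both bind CCR1, were not called (adjusted p = 0.478 and 0.495). The chemerin gene *Rarres2* had 5.55 ± 3.07 and 8.55 ± 1.28 CPM (adjusted p = 0.249), and *Mif*, which can bind CXCR4, had 19.8 ± 2.18 and 16.5 ± 4.32 CPM (adjusted p = 0.394). *Cx3cl1* and *Cxcl12*, which neurons and stromal cells make, were at most 1.54 and 3.93 CPM in any library. Of 7 proteases that release or activate these ligands, 3 were tested. *Ctss*, which encodes cathepsin S, a protease that sheds fractalkine, fell from 6889 ± 535 to 4909.5 ± 566 CPM (log2 fold change -0.49, SE 0.08, adjusted p = 0.00247 by edgeR). *Adam17* rose from 412 ± 40.5 to 536 ± 86.8 CPM (log2 fold change 0.38, SE 0.12, adjusted p = 0.0430), a call that held in 3 of the 12 fits that left out 1 library, and *Adam10* was not called (627 ± 81.2 and 710.1 ± 122 CPM, adjusted p = 0.357).

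Downstream of the receptors, the G protein genes that passed the test were lower in ARG1+ microglia. All 20 listed G protein, arrestin and receptor kinase genes were tested, 4 were lower and 1 was higher, beside 9.42% and 6.44% of all genes tested. The median log2 fold change of the 20 was -0.12. In libraries numbered 1 to 12 alone, none of these 5 calls was made. *Gna15* fell from 562 ± 31.5 to 418 ± 27.7 CPM (log2 fold change -0.43, SE 0.07, adjusted p = 0.00218 by edgeR), and *Gnb2* from 147 ± 19.8 to 91.9 ± 24.0 CPM (log2 fold change -0.70, adjusted p = 0.00801). *Gnai2*, which encodes an inhibitory alpha subunit, fell from 1171 ± 160 to 926 ± 81.6 CPM (log2 fold change -0.34, adjusted p = 0.0390), and *Gng10* from 362 ± 105 to 188 ± 70.1 CPM (log2 fold change -0.94, adjusted p = 0.0343). The calls of *Gnai2* and *Gng10* held in 2 and 4 of the 12 fits that left out 1 library. *Arrb1*, which encodes an arrestin that ends receptor signaling, rose from 32.7 ± 3.69 to 53.0 ± 11.4 CPM (log2 fold change 0.69, SE 0.14, adjusted p = 0.00670), whereas the other arrestin, *Arrb2*, was not called (116 ± 18.4 and 95.0 ± 14.8 CPM, adjusted p = 0.156). The kinase genes *Grk2* (218 ± 26.3 and 209 ± 42.9 CPM) and *Grk3* (15.2 ± 10.5 and 32.1 ± 8.91 CPM) were not called (adjusted p = 0.661 and 0.0898).

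RGS proteins end the G protein signal. Of 8 RGS genes listed, 6 were tested, 2 were lower and 0 higher (by edgeR, with 0 at an unadjusted p under 0.05 and 0 by DESeq2), and the median log2 fold change was -0.65. Over all genes tested, 9.42% were called lower and 6.44% higher. *Rgs2*, which acts mainly on Gq, had 720.2 to 915 CPM (median 831) in ARG1- and 348 to 471 CPM (median 407) in ARG1+ microglia (fitted log2 change -1.04, SE 0.09, adjusted p = 1.87e-04 by edgeR). *Rgs10*, which acts on inhibitory G proteins, had 538 to 796 CPM (median 729) and 269 to 417 CPM (median 339.7; log2 fold change -1.02, SE 0.14, adjusted p = 8.59e-04). In both genes the lowest ARG1- library was above the highest ARG1+ library, and both calls held in all 12 fits that left out 1 library. In the machinery of migration, 16 of 16 genes were tested, 1 was higher and 2 were lower, with a median log2 fold change of 0.22. DESeq2 with the same terms, and edgeR with a stricter minimum of 10 counts per library, each called 4 higher (*Dock2*, *Pik3r5*, *Pik3r6* and *Elmo1*) and 2 lower, so the balance of directions depends on these settings. *Cdc42* fell from 1386 ± 87.2 to 981 ± 135 CPM (log2 fold change -0.50, SE 0.10, adjusted p = 0.00561) and *Rhoa* from 412 ± 29.4 to 317 ± 35.9 CPM (log2 fold change -0.38, SE 0.09, adjusted p = 0.0148), and both encode small GTPases of the cytoskeleton. The call of *Rhoa* was lost without ARG1+ female 8 (adjusted p = 0.0543). *Dock2*, a Rac activator downstream of chemokine receptors, rose from 299.6 ± 46.0 to 456 ± 130.1 CPM (log2 fold change 0.61, SE 0.19, adjusted p = 0.0479), a call held in 3 of 12 such fits. *Rac1*, a GTPase of the leading edge, was not called (809 ± 89.4 and 811 ± 63.4 CPM, adjusted p = 0.982). Over all lists, 22 of 90 genes tested were called (24.4%), beside 15.9% of all genes.

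**Figure D5:**
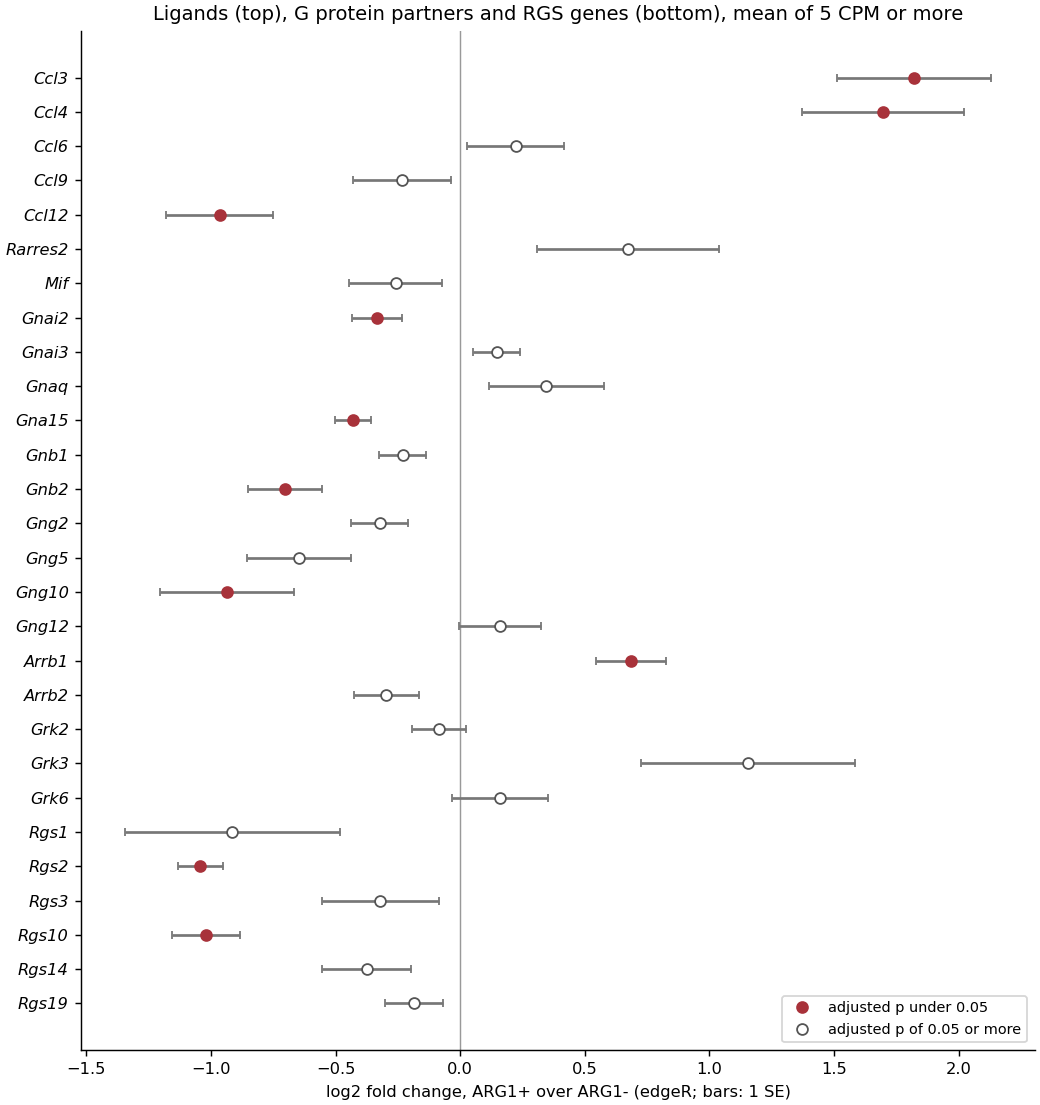
Log2 fold change of ARG1+ over ARG1- microglia (x axis; bars show 1 SE, edgeR) for the 28 tested ligand, G protein partner and RGS genes with a mean of at least 5 CPM, in that order from top to bottom. The 10 red points have an adjusted p under 0.05, with *Ccl3* (1.82) and *Ccl4* (1.70) farthest to the right and *Rgs2* (-1.04) and *Rgs10* (-1.02) farthest to the left among them.

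For each member, the genes with the nearest profile were sought, by the root mean square difference over the 12 libraries of log2 CPM after each gene was centered on its own mean, among genes with a mean log2 CPM of at least 3. *Ccr1* was nearest to *Hspb3* (0.487), *Cops4* (0.505), *Lst1* (0.533), *3830403N18Rik* (0.541) and *Rpl7* (0.542), beside a median of 1.05 over the 9188 genes compared. All 5 fell in ARG1+ microglia, by log2 fold changes from -1.74 to -1.12, a direction that their selection by nearness to the *Ccr1* profile favored. None of the 5 is a chemokine receptor, but most listed chemokine receptors were below the level needed to be compared. *Cx3cr1* was nearest to *Adam10* (0.111), *Lysmd4* (0.128) and *Itgb2* (0.128), and *Cmklr1* to *Uckl1* (0.160), *Slc25a38* (0.171) and *Tomt* (0.182). The nearest genes of *Ccrl2* were *1110008L16Rik* (0.502), *Mcm3ap* (0.538) and *Mms22l* (0.619), those of *Ccr2* were *1110008L16Rik* (0.823), *Zfp235* (0.871) and *Dnaja4* (0.947), and those of *Cxcr4* were *Zbtb26* (0.911), *Arid5b* (0.970) and *Fyco1* (1.02). With a minimum of 5, 3 of the 5 neighbors of *Ccr1*, all 3 of *Cx3cr1* and 1 of *Cmklr1* were named again, and none of those of *Ccr2*, *Ccrl2* and *Cxcr4*.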

How the data were processed

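RNA was measured in 12 libraries. Per the study's methods, the authors sorted pooled tissue into Qiazol, amplified cDNA with SMART-Seq v4, made Nextera XT libraries and sequenced single-end reads of 75 bases. Their processing notes name bcl2fastq 2.20.0, STAR 2.6.1d (GRCm38), featureCounts 1.5.1 and DESeq2 1.28.1. The values the authors deposited are raw counts per gene, without normalization, and all 12 columns were used. Symbols came from GENCODE M21 (GRCm38), which matched 55227 of 55487 identifiers. The 260 others held 0.0333% of counts.

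Counts were filtered (filterByExpr on the 4 groups), scaled by TMM and tested with edgeR 4.0.16 in R 4.3.3 (glmQLFit and glmQLFTest, ARG1 status and sex as terms), with Benjamini-Hochberg adjustment over all genes tested and a limit of 0.05. Effects within a sex, their difference and sex effects were contrasts of the 4 group means. SE was obtained from the log2 fold change and its F statistic. DESeq2 1.42.0 was an alternative. All 12 pairs of replicate libraries differed by more than sampling noise (chi-square of 40.7 to 125 per degree of freedom), so each counted as 1 replicate.

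The members, gene lists and tests were chosen with earlier results of these data known. Some listed genes are not reported here and were left out of the lists and their counts. Genes named are the 6 members, the called genes and at most 5 abundant others of each list, and for each member the 3 (for *Ccr1*, 5) nearest profiles. Any gene outside that rule was picked with its values in view. Alternatives were other size factors, no filter, a minimum of 10 counts in every library, ARG1 status alone, a term for libraries numbered 13 to 16, DESeq2, the longest transcript as length, and each library left out in turn.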

Additional observations from a re-analysis of the deposited data

Results flagged for a closer look

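The 6 members, the other called genes of the lists and the library totals were searched in 56 sets of 6 libraries for 1 library lying apart from the remaining 5. This was found in 4 sets, and chance gives about 2.8. *Cxcr4* had 0.291 CPM (11 counts) in ARG1- male 5, beside 0 to 0.0250 CPM in the other 5 ARG1- libraries. *Als2cl* had 0.556 CPM in the same library and 0 in the other 5. *Ccl4* had 14.7 CPM in ARG1- female 2, beside 3.48 to 7.65 CPM in the other ARG1- libraries. *Cdc42* had 713.6 CPM in ARG1+ male 12, beside 1000.2 to 1086.2 CPM in the other ARG1+ libraries.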

How the results depend on the processing

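The fall of *Ccr1* kept its direction and its side of the limit in all 12 fits that left out 1 library and in the 9 other fits, with log2 fold changes from -1.79 to -1.70 in the latter. Libraries numbered 1 to 12 alone, an alternative chosen after seeing the data, called 638 genes in place of 2682 (304 higher and 334 lower). There the G protein partners lost their 5 calls and the migration genes their 3, and *C5ar1*, *Ccl4*, *Ccl12*, *Ctss*, *Adam17* and *Als2cl* were not called, while *Rgs2*, *Rgs10*, *C3ar1*, *S1pr1*, *Gpr183*, *Ccl3* and *Fyco1* were called again. DESeq2 with both terms called 4105 genes (2141 higher, or 2017 with ARG1 status alone) and 2 members, *Cxcr4* being the second at 3.74. On the 4 groups DESeq2 called 2631 genes and 2 members in females, 2553 genes in males, 284 in the interaction, 404 between the sexes in ARG1- and 39 in ARG1+ microglia. Leaving out 1 library gave 1753 to 2669 genes called, 690 to 1116 higher and 1048 to 1553 lower, and 1 to 2 members. For effects within a sex it gave 91 to 1108 genes in females and 8 to 1187 in males, with 0 to 1 members in each, 0 to 10 in the interaction and 11 to 48 between the sexes in ARG1-. The log2 fold change ran from -0.17 to 0.90 for *Ccr2* (signs turned at -0.17, -0.09 and -0.14) and from 3.0 to 5.96 for *Cxcr4*. That of *Ccr1* ran from -1.71 to -1.33 in females and from -2.36 to -1.85 in males, and its sex difference in ARG1- from -0.0413 to 0.33, turning sign. With the longest transcript as length, *Cmklr1* had 2.64 CPM per kilobase in ARG1+ microglia in place of 2.23. The other members' levels per length moved by less than their SD. Without ARG1- male 6, the G protein partners had 2 calls upward and 2 downward. The cause of these differences was not tested. No paired analysis was possible because the ARG1+ and ARG1- libraries share no replicate number. *Ccr2* and *Cxcr4* were too sparse and too uneven between libraries to show moderate changes.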
